A study of Drosophila melanogaster with 53 samples.

Results

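The autophagy machinery other than Atg8a was followed as 10 named *Drosophila melanogaster* genes: Atg1, Atg13, Atg17, Atg101, Atg9, Atg2, Atg18a, Atg5, Atg7 and ref(2)P. They were listed by name, with earlier results of these data known, and all 10 were found in each of the 3 tables of values, which list 10657 genes (male muscle), 10222 genes (females with Atg8a or daw mutations) and 10258 genes (females with miR-252 or foxo mutations). Messenger RNA had been measured by sequencing of polyadenylated RNA in 53 samples of 19 groups. Muscle of control males was taken at 3, 15, 30 and 45 d of adult age, and muscle of females at 3 d was taken in sets of mutants with their own wild-type (WT) libraries. Each of these groups had 3 libraries. daw encodes Dawdle, an activin-like ligand, foxo the transcription factor FoxO of insulin signalling, and miR-252 a microRNA.

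WT was the w1118 line 5905 throughout, and the males were of that line. The first female set held WT, homozygous Atg8a mutants (atg8ac320/c320), homozygous mutants of the 3' UTR of daw (daw-3'UTRc82/c82) and the double mutant daw-3'UTRc82/c82; foxoc431/c431. The other female set held WT, mir-252c328/c328, foxoc431/c431, flies homozygous for a chromosome with both mir-252c328 and foxoc431, and the same flies with dawc458/+ in addition. A further pair of groups, foxoc431/c431 and WT females at 3 d, was raised on antibiotic medium (axenic), and whole flies of both sexes carrying pBID-UAS-HA-Ago1/+; GS-tubulin-GAL4/+ gave input RNA and HA-Ago1 precipitates at 3 and 30 d, with 2 libraries each. For the axenic flies and the precipitates only the authors' deposited comparison tables were used. Each mutation was represented by a single allele, and muscle was taken out of the fly, so other tissue may be carried along.

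Autophagy encloses cytoplasm in a double membrane, the autophagosome, which fuses with the lysosome for degradation of its content. The Atg1 kinase complex starts the process. Atg1 is its kinase, Atg13 its regulatory partner, Atg17 the fly counterpart of the mammalian scaffold FIP200, and Atg101 binds Atg13. Membrane is then supplied through the transmembrane lipid scramblase Atg9, the lipid transfer protein Atg2 and the phosphoinositide-binding protein Atg18a, and Atg8a is attached to lipid by a conjugation system in which Atg7 is the activating enzyme and Atg5 part of the ligase. ref(2)P, the fly p62, binds ubiquitinated cargo and Atg8a and is itself degraded by autophagy. In fly muscle, autophagy is known for clearing damaged mitochondria and protein aggregates, and FoxO is a known activator of autophagy genes.

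The genes differ in how firmly they can be measured. Total reads per library ran from 2358162 to 4078819. ref(2)P had 591 to 2400 reads in the male libraries, while Atg5 had 25 to 65 and Atg7 21 to 44, so counting alone gave an error of 13.8 to 18.7% for Atg5 and 16.1 to 20.7% for Atg7 at a group's mean read number. In the BDGP6 annotation Atg13 (chromosome 3R, 8349815 to 8352817, plus strand) and Atg101 (X, 18791668 to 18793517, plus strand) consist of 1 exon block each. Atg1 spans 3L, 12784429 to 12805116 on the minus strand in 11 exon blocks, Atg17 spans 3R, 5669713 to 5679930 on the plus strand in 6, Atg18a spans 3L, 8186857 to 8191118 on the plus strand in 4, and ref(2)P spans 2L, 19542468 to 19545548 on the plus strand in 3. Of the 10 genes, ref(2)P was the one whose exons overlapped those of another gene. CG10337 on the opposite strand shares 173 bases with it (7.2% of its exonic length), and CG10337 averaged 12.6 to 18.7 normalised counts in the 3 tables against 843 or more for ref(2)P. Without the use of strand in counting, reads in those bases cannot be told apart.

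Per exonic kilobase, ref(2)P mRNA was by far the most abundant of the 10 in WT muscle. Its level was 525 ± 104 normalised counts per kb in males at 3 d, 423 ± 62.1 in the first female WT group and 633 ± 79.3 in the second (SD, n = 3 each). Atg18a followed with 95.5 ± 11.3, 93.9 ± 20.9 and 107 ± 10.4. Atg5 was ninth with 30.1, 24.3 and 26.1, and Atg7 was lowest with 14.5, 9.68 and 13.6. The other 6 genes lay between 43.9 and 91.9 per kb, and their order changed from one WT group to the next. Neighbours in that order overlapped within 1 SD in males and in the first female WT group. In the second, Atg13, Atg9 and Atg17 at 91.9 ± 15.1, 85.2 ± 7.07 and 75.2 ± 6.33 lay above Atg2, Atg101 and Atg1 at 61.9 ± 2.21, 58.3 ± 4.91 and 53.4 ± 5.27 with no overlap between these sets of 3. Atg8a, the ubiquitin-like protein of the autophagosome membrane, was at 1820 to 2040 per kb.

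In the Atg8a mutant, Atg8a stood at 49.6 ± 9.44 normalised counts against 3145 ± 630 in WT (SD, n = 3 each). The foxo transcript was not lower in the libraries labelled foxo mutant: it was at 754 ± 65 against 582 ± 43.4 in WT of the same set, and at 618 ± 35.9 in the daw 3' UTR foxo double mutant against 511 ± 124 in WT, so a count over the whole gene does not check these labels. The third male library at 3 d stood apart, with a correlation of 0.845 and 0.848 to the other 3 d libraries, which correlated at 0.979 with each other. Mitochondrial genes took 24.9 to 34.4% of the reads at 3 d in males, 12.9 to 13.4% at 15 d, 8.67 to 8.81% at 30 d and 5.51 to 7.91% at 45 d. Nothing in the labels ties each library to its own flies, and the tests therefore weigh differences against a spread that could be technical. In bulk tissue, fewer cells of a type cannot be told apart from less RNA per cell.

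Male muscle was sampled at 4 ages to follow changes with age. A gene was called changed at a Benjamini-Hochberg adjusted p under 0.05 in limma, adjusted over all genes tested. With all libraries, none of the 10 genes was called at 15 d against 3 d (7.97% of 8393 tested genes were called, and 2 of the 10 had an unadjusted p under 0.05), and none at 30 d (13.5% of genes called, 4 of the 10 under an unadjusted 0.05). edgeR called none at either age, and DESeq2 called 0 and 3. At 45 d Atg101 alone was called, against 18.9% of all genes. These comparisons share the 3 d libraries.

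Atg101 stood at 115.3, 138 and 106 normalised counts at 3 d. The 15 d libraries had 97.8, 98.3 and 95.4, those of 30 d 98.8, 72.3 and 94.6, and those of 45 d 79.2, 82.45 and 77.9. Every library from 15 d on lay below every 3 d library, and the 45 d libraries lay below those of 15 d. In reads, Atg101 had 80, 98 and 64 at 3 d and 105, 93 and 86 at 45 d. The libraries held 3142763 to 3286566 reads at 3 d and 2838395 to 3345028 at 45 d. A single read stood for 1.41 to 1.65 normalised counts at 3 d and for 0.754 to 0.906 at 45 d. Atg101 thus fell in normalised counts but not as a share of reads. The log2 change from 3 d to 45 d was -0.57 ± 0.16 (SE; adjusted p 0.0261), which is 119.8 ± 16.8 against 79.9 ± 2.33 (SD). Without 3 d replicate 2, or without any one of the 45 d replicates 1, 2 or 3, the call was lost with adjusted p from 0.0644 to 0.0867. It was also lost with the 3 d and 45 d libraries alone in the fit and with a replicate block (adjusted p 0.0524 to 0.163).

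The 3 d library that stood apart set most of the remaining male picture. In it Atg17 was at 119 against 435 and 471 in the other 3 d libraries, Atg1 at 72.6 against 252.3 and 222, Atg2 at 157 against 320.1 and 361, and Atg13 at 132 against 245 and 248. ref(2)P was at 975 there against 1449 and 1347. Atg5 and Atg7 were not low in it, at 41.2 and 34.6 against 41.8 to 45.2 and 31.7 to 38.1. Summed over the 10 genes, its share of reads was 0.0379%, where the remaining pair had 0.0747 and 0.0752%. At 45 d the summed share was higher, at 0.136, 0.127 and 0.137%. Reads of Atg9 ran from 104 to 178 at 3 d and from 164 to 227 at 45 d, and those of Atg18a from 149 to 221 and from 225 to 272. The falls with age given below are in normalised counts and depend on that scaling of the libraries.

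**Figure D1:**
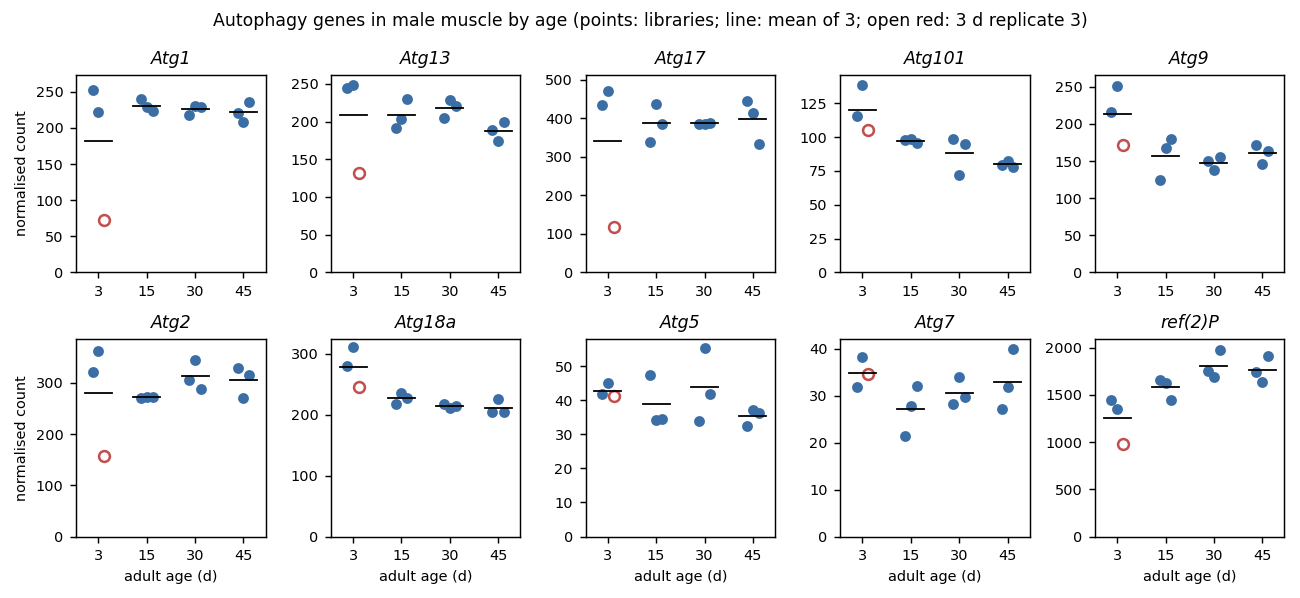
Normalised counts of the 10 genes in male muscle (y) by adult age in days (x); points are libraries, lines the mean of 3, and the open red point is 3 d replicate 3. That library is far below the others for Atg1, Atg2, Atg13 and Atg17, while Atg101 and Atg18a are lower at every later age with or without it.

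Without that library, an alternative chosen with the values in view, 9 of the 10 genes had a log2 change below 0 at each later age, and ref(2)P was the one above 0. The median log2 change of the 10 was -0.28 at 15 d, -0.18 at 30 d and -0.25 at 45 d, against 0.01 to 0.02 over all genes. Called genes were then 4 of 10 at 15 d, 4 of 10 at 30 d and 5 of 10 at 45 d, beside 30.9, 42.2 and 48.8% of all tested genes, so the share called was near that of all genes. The group of 3 d rests on 2 libraries in these fits.

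Among the genes of membrane supply, Atg9 was at 216 and 251 in the 2 remaining 3 d libraries. It was at 124, 167 and 179 in the 15 d libraries, 149, 138 and 155 in those of 30 d, and 171, 145 and 164 in those of 45 d. All later libraries were below those 3 d libraries, and Atg9 fell by 0.59, 0.66 and 0.54 on the log2 scale (SE 0.14 each; adjusted p 0.00408, 0.00119 and 0.00426). The library left out had Atg9 at 172, within the range of the later libraries. With that library kept, the changes of Atg9 were -0.44, -0.51 and -0.39 with adjusted p of 0.187, 0.0906 and 0.166. Atg18a was at 279.7 and 312 at 3 d (246 in the library left out) and at 204 to 236 at the later ages, so that every later library was below all 3 of the 3 d libraries. It fell by 0.38, 0.46 and 0.48 (SE 0.09 each; adjusted p 0.00363, 0.000524 and 0.00029). With the third library kept, the changes of Atg18a were -0.29, -0.37 and -0.39 with adjusted p of 0.234, 0.0902 and 0.0608. Atg2 fell at 15 d alone, from 320.1 and 361 to 271, 273 and 273 (log2 change -0.32 ± 0.1, adjusted p 0.0241), and its direction turned: with the third library kept the change was 0.05.

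In the kinase complex, Atg101 fell at all 3 ages without that library (log2 changes of -0.38, -0.52 and -0.66, adjusted p 0.0499, 0.00621 and 0.000942). Atg13 fell at 45 d, from 245 and 248 to 189, 174 and 199 (log2 change -0.40 ± 0.1, adjusted p 0.0034), and its change with the third library kept was -0.10 (adjusted p 0.796). Atg1 and Atg17 were not called with or without it. Atg1 was at 208 to 240.4 normalised counts in all 9 later libraries. Its log2 change at 45 d was 0.47 (95% interval -0.31 to 1.24) with all libraries and -0.10 (-0.29 to 0.10) without 3 d replicate 3, and that of Atg17 was 0.44 (-0.45 to 1.33) and -0.20 (-0.45 to 0.05), so both turned sign. Of the conjugation enzymes, Atg5 at 32.4 to 55.3 and Atg7 at 21.4 to 39.9 in the later libraries were not called either, with 95% intervals at 45 d of -0.74 to 0.15 and -0.56 to 0.38 without that library.

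The cargo receptor went the other way. ref(2)P was at 1449, 1347 and 975 in the 3 d libraries and 1660, 1626 and 1448 in those of 15 d. It had reached 1752, 1693 and 1974 at 30 d, and it read 1744, 1636 and 1908 at 45 d. The 30 d and 45 d libraries all lay above the 3 d libraries. With all libraries the log2 changes at 30 and 45 d were 0.54 ± 0.17 (adjusted p 0.0511) and 0.50 ± 0.17 (adjusted p 0.0536). Without 3 d replicate 3 they were 0.37 ± 0.09 (adjusted p 0.00351) and 0.33 ± 0.09 (adjusted p 0.00591), and DESeq2 on all libraries called both (adjusted p 0.0091 and 0.0137). At each of these ages ref(2)P was called in only 4 of 13 alternative fits. The highest adjusted p among the alternatives was 0.289 at 30 d and 0.277 at 45 d.

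Between 15 and 45 d, a comparison added after the values were seen, limma, edgeR and DESeq2 called none of the 10. None had an unadjusted p under 0.05 in limma, and 1.29% of all genes were called. The means compared hold none of the 3 d libraries, but those libraries share in the estimate of the spread. With only the 15 and 45 d libraries in the fit, none of the 10 was called either, although many more genes were called over all. Atg101 had the largest shift of the kinase complex, -0.28 with a 95% interval from -0.63 to 0.06, and the other 9 genes lay between -0.15 (Atg13) and 0.27 (Atg7). For comparison, Atg8a fell in the same males from 3459 ± 254 at 3 d to 1401 ± 29.5 at 45 d.

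Markers of other tissues moved with age as a share of reads. The 9 fat body markers listed took 0.177 to 0.489% of reads at 3 d and 1.08 to 1.26% at 45 d, the 9 hemocyte markers 0.057 to 0.124% and 0.153 to 0.169%, and the 15 muscle markers 2.47 to 5.53% and 1.52 to 1.61%. The lowest 3 d value of each is that of replicate 3. The 9 neuron markers took 0.126, 0.122 and, in replicate 3, 0.0282% at 3 d against 0.114 to 0.128% at 45 d, and without replicate 3 all 9 were called lower at 45 d in normalised counts (median log2 change -0.78). In normalised counts the hemocyte markers did not rise as a set. Without replicate 3, the 8 tested had 4 called lower at 45 d and 1 higher (median log2 change -0.43). With all libraries 2 were called lower and 0 higher (median -0.04). In the fit without replicate 3, the 6 fat body markers tested had 3 called higher and 0 lower (median 0.74). The 15 muscle markers had 14 called lower and 0 higher there (median -2.63). The part of all these markers in the changes with age, and that of the mitochondrial share, was not tested.

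Of 46 other autophagy genes in 4 lists (other core genes, fusion with the lysosome, upstream regulators, selective autophagy), 43 were tested in males. With all libraries none was higher at any age, and the lower ones numbered 1, 1 and 3 at 15, 30 and 45 d. These are 2.33, 2.33 and 6.98% of those tested, beside 7.97, 13.5 and 18.9% of all genes called in either direction. Syx17, the autophagosomal SNARE, was lower at all 3 ages (log2 changes of -0.73, -0.63 and -0.65, adjusted p 0.0376, 0.0487 and 0.0333), and Pink1, the mitophagy kinase, and Atg6, the Beclin of the Vps34 complex, were lower at 45 d (-0.54 and -0.59, adjusted p 0.0136 and 0.0255). Without 3 d replicate 3, 42 were tested and 14 were lower and 4 higher at 45 d (42.9%, against 48.8% of all genes), with AMPKalpha, the catalytic subunit of the energy sensor AMPK, at -0.78 and Mitf, the fly TFEB, at -0.69 (adjusted p 2.51e-06 and 5.65e-05).

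Homozygous loss of Atg8a was compared with WT to see the transcriptome without this core protein. One of the 10 genes changed, Atg13, against 9.89% of 8271 tested genes. Atg13 was at 136, 146 and 133 in the mutant and at 204, 226 and 329.9 in WT, so the groups did not overlap. It fell by 0.84 ± 0.15 on the log2 scale (SE; adjusted p 0.00377), and it was called in all 13 alternative fits, with changes from -0.98 to -0.63. The authors' deposited table gives -0.77 ± 0.18 for the same comparison (adjusted p 0.000812), where 5.37% of genes are called. Its partners in the kinase complex did not pass: Atg1 was at 236, 235 and 249 against 199.7, 219 and 144 in WT (log2 change 0.38, adjusted p 0.163), Atg17 at 454, 430.6 and 465 against 486, 494 and 329.9 (0.07, 95% interval -0.26 to 0.39), and Atg101 at 143, 152 and 114 against 134, 119 and 60.0 (0.45, adjusted p 0.274). ref(2)P, whose protein is an Atg8a-dependent substrate, was at 1185, 1132 and 1226 against 1114, 1085 and 843. These groups did not overlap, but the log2 change of 0.23 (95% interval -0.02 to 0.48) did not pass. Atg9, Atg2, Atg18a, Atg5 and Atg7 lay between -0.03 (Atg7) and 0.27 (Atg9).

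The median log2 change of the 10 was 0.19, against 0.00 over all genes. WT replicate 3 bears on this: of the 12 libraries of this set it had the lowest values for Atg101, Atg9, Atg18a, Atg2 and ref(2)P and the highest for Atg13. It correlated at 0.967 and 0.971 with the other WT libraries, which correlated at 0.98 with each other.

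Of the other autophagy genes, 44 were tested in this set, and 1 was higher and 2 were lower in the Atg8a mutant. Tango5, the fly VMP1, rose from 174 to 481 (log2 change 1.47, adjusted p 6.25e-06). Tango5 (X, 10760048 to 10764413, minus strand) lies 464 bases from Atg8a on the same strand, and whether the Atg8a lesion acts on the neighbouring gene was not tested. Mitf fell by 0.69 (adjusted p 0.000603) and lt, a subunit of the HOPS tethering complex, by 0.44 (adjusted p 0.0115).

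In the daw 3' UTR mutant Atg13 was again the one gene of the 10 called, beside 3.12% of all genes. It was at 153, 151 and 178, below the 3 WT libraries, with a log2 change of -0.63 ± 0.15 (adjusted p 0.0396) and -0.54 ± 0.16 in the authors' deposited table (adjusted p 0.0432), which calls 2.53% of genes. This comparison shares its WT libraries with that of Atg8a. The call was less firm, since it was lost in 7 of 13 alternatives: without WT replicate 2 or 3 or any one of the 3 mutant libraries (adjusted p 0.0613 to 0.145), after upper quartile scaling and with these groups alone in the fit (adjusted p 0.066 to 0.0967). Without WT replicate 3, the library at 329.9, the change was -0.42. The other 9 genes had log2 changes from -0.22 to 0.20. daw itself stood at 439 ± 75.7 in the mutant and 282 ± 48.3 in WT. Among the other autophagy genes Snap29, a SNARE of autophagosome fusion, was the one called and fell by 0.92 (adjusted p 0.00154).

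The daw 3' UTR foxo double mutant showed 3 called genes against WT, beside 35.8% of all genes, so the count of 3 in 10 was near the background. Atg1 was at 136, 147 and 120.3 against 199.7, 219 and 144 in WT, which overlap, with a log2 change of -0.46 ± 0.16 (adjusted p 0.0398). Atg17 was at 282, 306 and 377 against 486, 494 and 329.9, which overlap, with -0.43 ± 0.15 (adjusted p 0.0419). ref(2)P rose, at 1450, 1453 and 1116 against 1114, 1085 and 843, by 0.40 ± 0.12 (adjusted p 0.016). For Atg1 and Atg17 the calls were lost in edgeR, with these groups alone in the fit and with a replicate block (adjusted p 0.0502 to 0.0949), and in 4 of 6 fits each that left out 1 library: WT replicates 1 or 2 and mutant replicates 1 or 3 for Atg1, and WT replicates 1 or 2 and mutant replicates 1 or 2 for Atg17 (adjusted p 0.0798 to 0.166). For ref(2)P it was lost with these groups alone in the fit (adjusted p 0.0601) and without WT replicate 3 or mutant replicate 1 or 2 (adjusted p 0.0638 to 0.0727). The other 7 genes had log2 changes from -0.21 (Atg18a) to 0.69 (Atg7, adjusted p 0.0543). The authors' deposited table for this comparison calls none of the 10 and 19.1% of its genes, with ref(2)P at 0.39 ± 0.16 (adjusted p 0.0698).

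Set against the daw 3' UTR mutant, which adds the foxo mutation to the same daw background, 3 of the 10 were called beside 30.6% of all genes. Atg17 was at 282, 306 and 377 against 410.2, 470.0 and 536, with no overlap, and fell by 0.56 ± 0.15 (adjusted p 0.0135). The call was lost without daw 3' UTR replicate 3 or double mutant replicate 1 (adjusted p 0.062 to 0.0658). Atg1 was at 136, 147 and 120.3 against 178, 156 and 232, also without overlap, and fell by 0.47 ± 0.16 (adjusted p 0.0405). Its call was lost with a replicate block (adjusted p 0.0583) and in 5 of 6 fits that left out 1 library, namely daw 3' UTR replicates 1 or 3 and double mutant replicates 1, 2 or 3 (adjusted p 0.0531 to 0.181). Atg13 was at 197, 245 and 226 against 153, 151 and 178, and rose by 0.47 ± 0.15 (adjusted p 0.0327), back to within the WT range of 204 to 329.9 in 2 of the 3 libraries. Its call was lost after upper quartile scaling (adjusted p 0.0594) and without daw 3' UTR replicates 1 or 2 or double mutant replicates 2 or 3 (adjusted p 0.0648 to 0.124). Atg7 was at 36.6, 36.0 and 35.1 against 23.2, 26.2 and 26.4. These ranges did not overlap, but on 19 to 40 reads per library the change of 0.49 did not pass. The other 6 genes lay between -0.22 (Atg18a) and 0.46 (Atg101).

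Among the 44 other autophagy genes, 7 were higher and 10 lower than WT in this double mutant (38.6%, near the 35.8% of all genes). Pink1 fell by 0.54, AMPKalpha by 0.59 and Mitf by 0.47, and Vamp7, a lysosomal SNARE, rose by 0.64 (adjusted p 0.000146, 0.000167, 0.00183 and 0.000306). Against the daw 3' UTR mutant 3 were higher and 5 lower (18.2%, against 30.6% of all genes), with stas, a transmembrane protein related to VMP1, at 0.82 (adjusted p 0.000493).

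**Figure D2:**
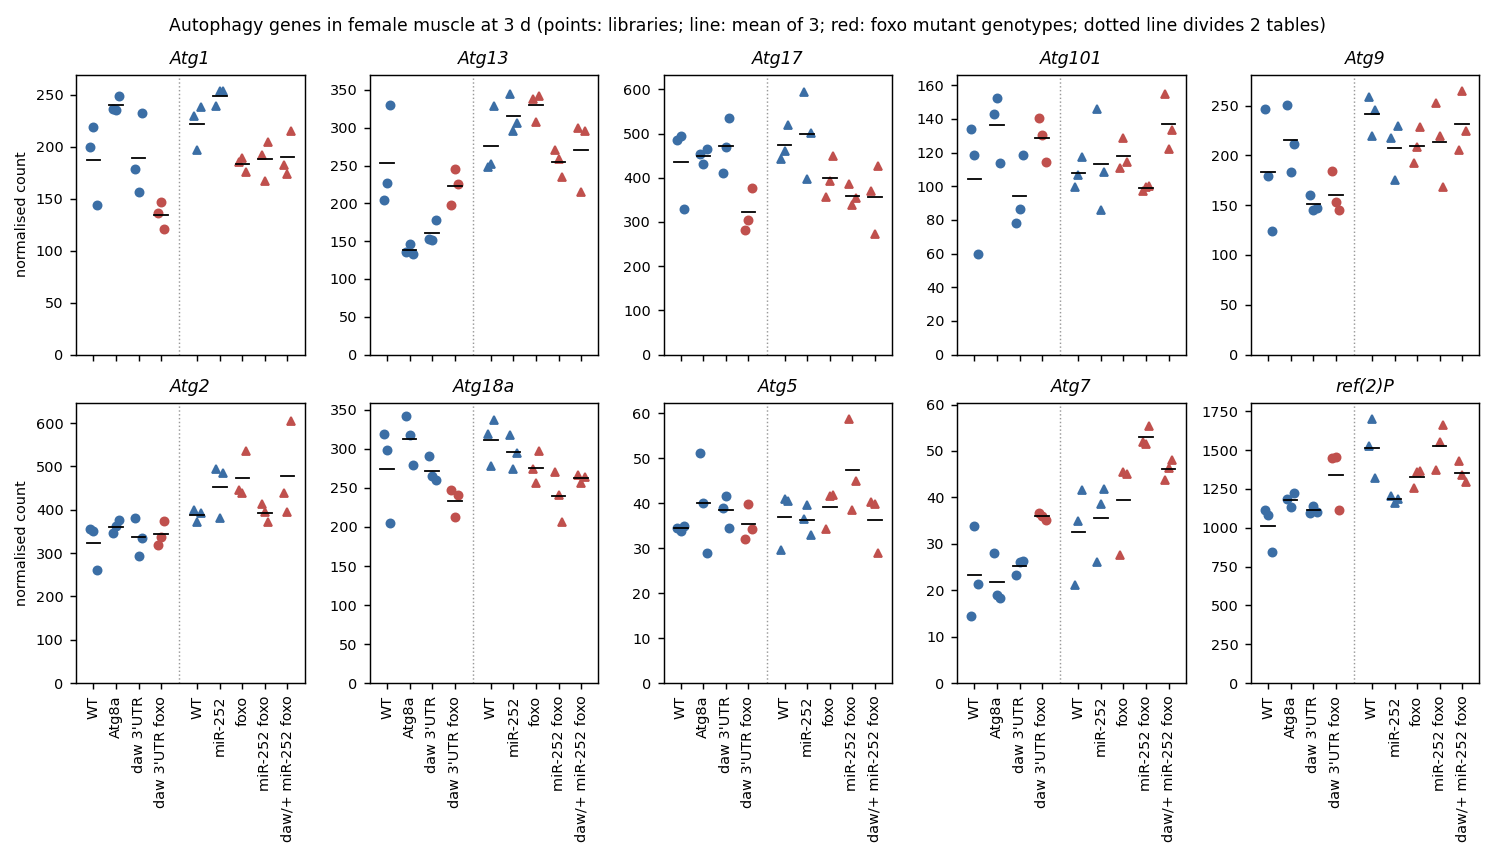
Normalised counts of the 10 genes in female muscle at 3 d (y) by genotype (x); points are libraries, lines the mean of 3, red marks genotypes with the foxo mutation, and the dotted line divides the 2 separately normalised tables. Atg13 is low in the Atg8a and daw 3' UTR mutants, and Atg1 is lower in foxo mutant genotypes than in the genotype without it in both tables.

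In the other female set the foxo mutation was tested with and without miR-252. Neither single mutant changed any of the 10 in limma. For foxo, 11.8% of genes were called, 1 of the 10 had an unadjusted p under 0.05, and edgeR and DESeq2 called none. Atg1 was at 185, 189 and 176 in the foxo mutant and at 229, 197 and 238 in WT, with no overlap and a log2 change of -0.27 (95% interval -0.52 to -0.02, adjusted p 0.162). Atg2 was at 445, 439 and 535 against 398, 372 and 393, also without overlap, with a change of 0.28 (adjusted p 0.22). The other 8 overlapped, with changes from -0.25 (Atg17) to 0.29 (Atg7).

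For miR-252, 4.39% of genes were called, 1 of the 10 had an unadjusted p under 0.05, edgeR called none and DESeq2 called 1. That gene was ref(2)P, at 1206, 1159 and 1184 in the mutant and 1528, 1700.0 and 1321 in WT. The mutant libraries were below all WT libraries, and the log2 change was -0.35 ± 0.1 (adjusted p 0.0604 in limma, 0.0249 in DESeq2). The other 9 genes lay between -0.22 (Atg9) and 0.22 (Atg2). In the first female set the WT libraries had ref(2)P between 843 and 1114, but the tables were scaled separately and are not compared.

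With both mutations, Atg7 and Atg18a were called, beside 25.2% of all genes. Atg7, the E1-like enzyme, was at 52.0, 51.5 and 55.4 against 21.1, 34.9 and 41.6 in WT and 26.1, 38.7 and 41.7 in the miR-252 mutant. The double mutant lay above both groups, and the log2 change from WT was 0.74 ± 0.25 (adjusted p 0.0326), on 56 to 69 reads per library against 20 to 40. Atg18a was at 271, 241 and 206 against 319, 278 and 338, without overlap, and fell by 0.38 ± 0.12 (adjusted p 0.0218). Each call was lost in 4 of 6 fits that left out 1 library. For Atg7 these were WT library 1 and any of the double mutant libraries (adjusted p 0.0654 to 0.192), with a change of 0.46 without WT library 1, and for Atg18a WT libraries 1 or 3 and double mutant replicates 2 or 3 (adjusted p 0.0521 to 0.128). Atg17, at 386, 339 and 354 against 442, 461 and 519, did not overlap either but had an adjusted p of 0.0714 (log2 change -0.39), and the authors' deposited table calls it with the same change (adjusted p 0.0208). That authors' deposited table calls 18.1% of its genes and no other of the 10, with Atg18a at -0.37 (adjusted p 0.0759) and Atg7 at 0.62 (adjusted p 0.102). The other 7 genes had limma changes from -0.24 (Atg1) to 0.34 (Atg5).

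Averaged over both miR-252 backgrounds, a comparison added after the values were seen, 3 of the 10 genes were lower with the foxo mutation, beside 14.2% of all genes lower and 27.4% called in either direction. Atg1 fell by 0.34 ± 0.08 (adjusted p 0.00554) and was called in all 18 alternatives, with changes from -0.38 to -0.30. Of the 10, Atg1 alone had all foxo mutant libraries below their background in all 3 backgrounds. Its means were 183 against 221 in WT, 188 against 248 in the miR-252 mutant and 135 against 189 in the daw 3' UTR mutant. The WT and miR-252 backgrounds are the same libraries as in the averaged comparison. How many of all genes separate in this way was not counted. Atg17 fell by 0.35 ± 0.11 (adjusted p 0.0235) and was lost without WT library 3, miR-252 replicate 1, foxo replicate 1 or double mutant replicate 2 (adjusted p 0.0555 to 0.0747). Atg18a fell by 0.24 ± 0.08 (adjusted p 0.0376) and was lost in 8 of 12 fits that left out 1 library (adjusted p 0.0625 to 0.107). Both were below their background without overlap in the miR-252 and daw 3' UTR backgrounds and overlapped it in the WT background.

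The 10 genes had no common direction here. The median log2 change of the 10 under the averaged foxo mutation was -0.02, against 0.01 over all genes, and 4 of the 10 were above 0. Atg7 was at 0.44 (adjusted p 0.0678), the other 6 uncalled genes lay between -0.09 (Atg9) and 0.22 (Atg5), and Atg8a fell by 0.35 (adjusted p 0.00297). The miR-252 mutation averaged over both foxo backgrounds gave no call in limma, edgeR or DESeq2 among the 10 (10.9% of genes called, none of the 10 with an unadjusted p under 0.05), with changes from -0.14 (Atg18a) to 0.30 (Atg7).

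Whether the effects of miR-252 and foxo depended on each other was asked with an interaction term. It called none of the 10 in limma, against 2.09% of genes, while 3 had an unadjusted p under 0.05, edgeR called none and DESeq2 called 1. For ref(2)P the interaction was 0.55 ± 0.15 (adjusted p 0.054 in limma, 0.0142 in DESeq2), with means of 1516 in WT, 1183 in miR-252, 1326 in foxo and 1528 in the double mutant. For Atg13 it was -0.57 ± 0.2 (adjusted p 0.169) and for Atg2 -0.48 ± 0.2 (adjusted p 0.29), and the other 7 lay between -0.29 (Atg101) and 0.31 (Atg7).

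One mutant copy of daw in the miR-252 foxo background left the 10 genes uncalled in limma, edgeR and DESeq2. Against the miR-252 foxo double mutant 5.09% of genes were called and 1 of the 10 had an unadjusted p under 0.05, Atg101 with 155, 122 and 134 against 97.35, 99.3 and 100.4. These ranges did not overlap, and the log2 change was 0.46 ± 0.16 (adjusted p 0.114), while the other 9 lay between -0.37 (Atg5) and 0.26 (Atg2). Against WT 15.9% of genes were called and 2 of the 10 had an unadjusted p under 0.05. Atg17 was at 371, 273 and 426 there, below all WT libraries, with a change of -0.43 ± 0.16 (adjusted p 0.0677), and the other 9 lay between -0.24 (Atg18a) and 0.54 (Atg7). daw stood at 422 ± 55 in these flies and 430 ± 22.5 in the double mutant.

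Markers of other tissues moved with the foxo genotypes as well. The 10 fat body markers took 8.17 to 8.93% of reads in the foxo mutant and 7.08 to 7.62% in the miR-252 foxo double mutant, against 4.32 to 5.08% in WT and 5.14 to 5.36% in the miR-252 mutant. The 9 hemocyte markers took 0.334 to 0.424% in that double mutant against 0.168 to 0.183% in WT, and 0.431 to 0.487% in the daw 3' UTR foxo double mutant against 0.174 to 0.187% in the daw 3' UTR mutant. The 9 neuron markers took 0.0553 to 0.0722% against 0.109 to 0.118% in the latter pair. The 16 muscle markers took 5.82 to 7.36% in the daw 3' UTR foxo double mutant against 4.61 to 5.5% in the daw 3' UTR mutant, with 12 of 16 called higher and 3 lower, and 3.93 to 4.66% over the miR-252 and foxo groups. The part of these markers in the changes of Atg1, Atg17, Atg18a and Atg7 was not tested.

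Of the 44 other autophagy genes in this set, 1 was called in the foxo mutant, 10 in the miR-252 foxo double mutant and 4 in the dawc458/+ flies, and none in the miR-252 mutant. These are 2.27, 22.7 and 9.09% of those tested, beside 11.8, 25.2 and 15.9% of all genes. Snap29 was lower in each of the 3 foxo genotypes (log2 changes of -0.64, -0.63 and -0.63, adjusted p 0.0158, 0.0079 and 0.0133), which share their WT libraries. In the double mutant Vamp7 rose by 0.67 and Plekhm1, a lysosomal adaptor, by 0.71, while Vps34, the class III phosphoinositide 3-kinase, fell by 0.47 (adjusted p 0.00192, 0.00279 and 0.0115).

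**Figure D3:**
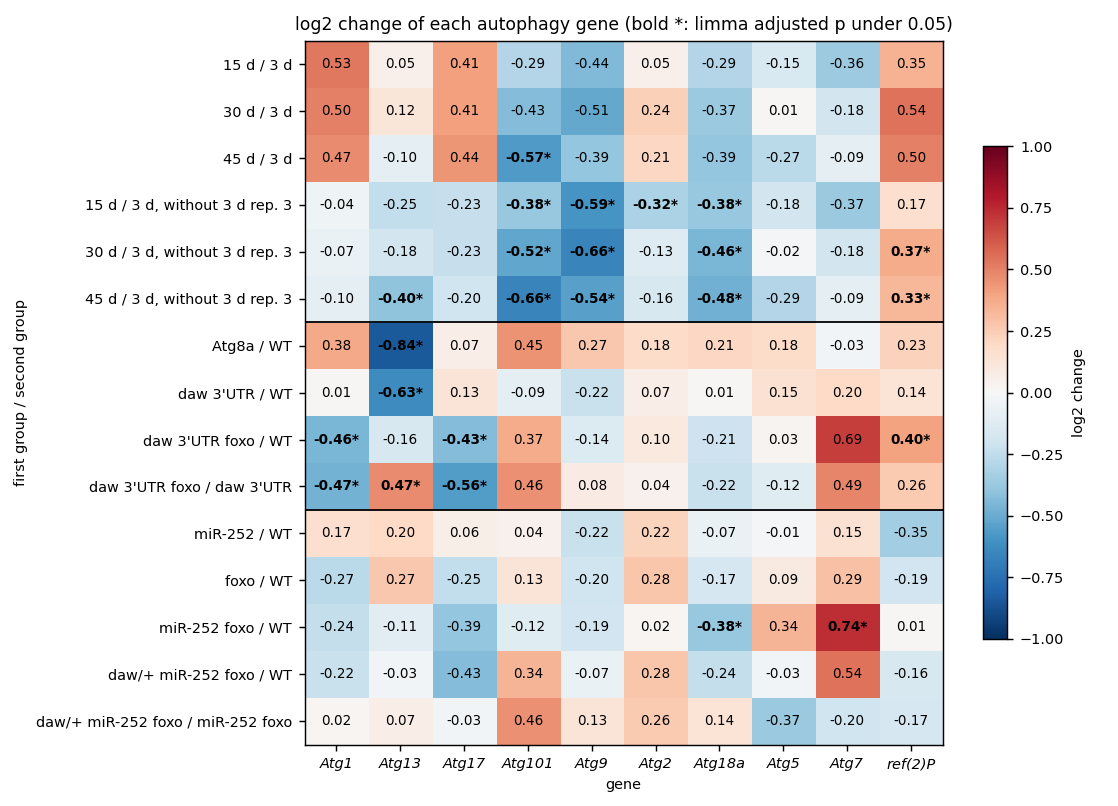
Log2 change of each of the 10 genes (columns) in 15 rows, 12 comparisons of muscle and the 3 male comparisons again without 3 d replicate 3; the colour scale runs from -1 (blue) to 1 (red) and bold values with a star passed an adjusted p of 0.05 in limma. Atg1 and Atg17 change from above 0 to below 0 in the male rows when that library is left out, and both are below 0 in each row that sets a foxo genotype against one without the mutation.

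In axenic females the foxo mutation gave no call among the 10 in the authors' deposited table, beside 6.25% of its genes. The table lists log2 changes from -0.16 (Atg5) to 0.70 ± 0.31 (Atg7, adjusted p 0.209), with ref(2)P at 0.42 ± 0.17 (adjusted p 0.14). Atg1 was at -0.15 ± 0.2 and Atg17 at 0.05 ± 0.18 there. Whether these differ from the conventionally raised flies was not tested, since the values of the axenic libraries were not used here. In the same table Snap29 is called lower (-0.73 ± 0.23, adjusted p 0.0304), as 1 of 11 fusion genes tested. Of 12 upstream regulators 1 is called higher, and no gene of the other core or selective lists is called.

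Ago1 loads microRNAs and holds the messages they target, so mRNAs that are higher in Ago1 precipitates than in input are candidates for microRNA targeting. In the authors' deposited tables, Atg18a and Atg101 were the members called, both higher in the precipitate at both ages. At 3 d the table gives 1.29 ± 0.2 for Atg18a (2.44-fold, adjusted p 5.38e-09) and 1.23 ± 0.24 for Atg101 (2.35-fold, adjusted p 4.27e-06). At 30 d it gives 1.51 ± 0.38 for Atg18a (2.86-fold, adjusted p 0.000827) and 1.41 ± 0.38 for Atg101 (2.66-fold, adjusted p 0.00247). The background was wide: 17.8% of genes were called higher at 3 d and 14.4% at 30 d, and 26.0 and 16.5% in either direction. Atg8a was called higher as well in the authors' tables, at 1.22 and 1.76.

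The other 8 genes were not called at either age in those tables. Their log2 values lay from -0.13 (ref(2)P) to 0.56 (Atg9) at 3 d and from -0.23 (ref(2)P) to 0.38 (Atg9) at 30 d, and Atg1 was at 0.26 ± 0.21 and 0.25 ± 0.35. The standard errors at 30 d ran up to 0.38, and whether the ages differ was not tested. The precipitates came from whole flies of both sexes and 2 libraries a group, so they do not speak of muscle alone. From the 46 other genes the authors' tables call Atg4b (1.83 and 1.81) and Atg18b (1.75 and 2.45), a protease for Atg8 proteins and a relative of Atg18a, higher at 3 and 30 d, with Vps34 at 1.65 and 1.58 and REPTOR, a transcription factor downstream of Tor, at 2.11 and 2.02. At 3 d, 3 of 15 other core genes were higher and 1 lower. Higher were also 1 of 12 fusion genes, 2 of 11 upstream regulators and 4 of 7 selective autophagy genes. At 30 d these lists had 3 of 15, 1 of 12, 1 of 11 and 4 of 6 higher. Over all genes 17.8 and 14.4% were higher.

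**Figure D4:**
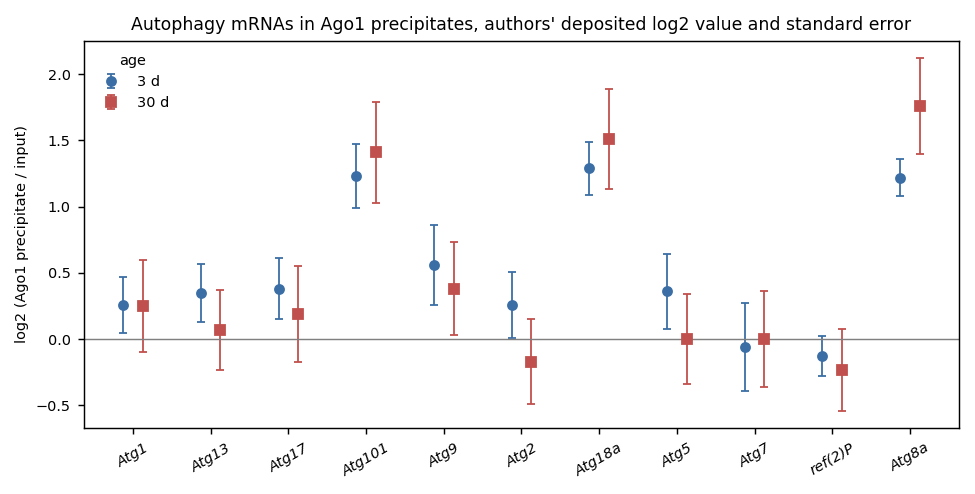
The authors' deposited log2 ratio of Ago1 precipitate to input (y) for the 10 genes and Atg8a (x) in whole flies at 3 d and 30 d; bars are the deposited standard error of 2 against 2 libraries. Atg101, Atg18a and Atg8a lie above 1 at both ages, and the other 8 genes below 0.6.

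The median Pearson r of their 45 pairs was 0.09 over the 12 male libraries, 0.22 without 3 d replicate 3, 0.12 over the first female set and -0.01 over the 15 libraries of the other. These values describe libraries that share depth, age or genotype. The genes most like the mean of the 10 (highest Pearson r with their averaged standardised log2 values) were ko, larp, Vha55, if and Msp300 in males (r = 0.952 to 0.984) and faf, mnb, beta-Spec, coro and BicD without 3 d replicate 3 (0.949 to 0.955). In the first female set they were Nedd8, godzilla, Fit1, alc and Strip (0.877 to 0.917), and in the other Xe7, egl, Pcf11, Cf2 and sli (0.832 to 0.9).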

How the data were processed

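RNA of dissected muscle, and of whole flies for the precipitates, was selected for polyadenylated transcripts, per the labels' protocols. Per the submitters' processing notes the tools were STAR, HTSeq and DESeq on dm6, with no versions, and the use of strand in counting is not stated there. The deposited signal is a count per gene and library that the authors normalised with DESeq within each of 3 tables. The deposited comparison tables hold the authors' log2 fold change, its standard error and p-value, and no source used here says whether those log2 values were shrunk. Each library's values were whole multiples of 1 read (100% whole within 0.01), which gave 2838395 to 3487569 reads per male library, and for females 2358162 to 4023468 (Atg8a, daw) and 3294056 to 4078819 (miR-252, foxo). Counting errors cover counting only.

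Genes averaging 10 or more normalised counts across a table (8393, 8271 and 8357) were tested with limma 3.58.1 in R 4.3.3, using its trend option. The scale was log2(normalised count + 1), and each table was fitted once with every group in it. All 10 members passed this filter in every table. Folds on this scale understate changes of low genes. edgeR 4.0.16 on the recovered reads called 1622 genes at 45 d against 3 d where limma called 1586, and DESeq2 1.42.0 was a further alternative. The other alternatives were a pseudocount of 8, no filter, upper quartile scaling, only the groups compared, a replicate block and each library left out. Scripts were tested on simulated data.

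The members and lists were chosen with earlier results of these data known. Members are named in each comparison, singly or by the range of the others, with Atg8a, foxo and daw as checks, and up to 4 called genes of the 46 with the smallest adjusted p. mir-252 is not listed in the value tables. The WT columns of the miR-252 and foxo table carry no number that ties them to single samples, so they are numbered by column as libraries 1 to 3.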

Additional observations from a re-analysis of the deposited data

Results flagged for a closer look

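A gene is listed here because its libraries separated from the background in opposite directions, so that separation is the rule of choice and not a test. How many of all genes do so was not counted. Atg13 stood on opposite sides of its background level with the foxo mutation in 2 backgrounds. In the miR-252 background all foxo mutant libraries were below the miR-252 libraries (log2 ratio of means -0.31, 255 against 315 normalised counts), and in the daw 3' UTR background all were above (0.47, 223 against 161). The backgrounds lie in separate tables, so this difference was not tested. Within the miR-252 and foxo table, the interaction for Atg13 was -0.57 with an adjusted p of 0.169 in limma.

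ref(2)P did the same with the miR-252 mutation. In the WT background all mutant libraries were below WT (log2 ratio of means -0.36, 1183 against 1516), and in the foxo background all double mutant libraries were above the foxo libraries (0.2, 1528 against 1326). This difference was tested as the interaction, on the same libraries that flagged the gene. The interaction was 0.55 ± 0.15 with an adjusted p of 0.054 in limma and from 0.0142 to 0.158 over 18 alternatives.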

How the results depend on the processing

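Single genes kept their side of the threshold in 2089 of 2190 alternative values, calls were lost in 64 and gained in 36, and 1 turned direction with a call (Atg2 at 15 d, 0.05 with all libraries, -0.32 to 0.28 with 1 left out, the lowest without 3 d replicate 3). The sign of the change turned in 89 of the 2190 values, 12 of them among the 30 without 3 d replicate 3 (Atg1, Atg2 and Atg17 at all 3 ages, Atg13 at 15 and 30 d and Atg5 at 30 d). Counts of called members moved as follows under these settings. Upper quartile scaling gave 1 at 30 d, 3 at 45 d, 0 for daw 3' UTR, 1 for miR-252, 3 for miR-252 foxo and 2 for daw 3' UTR foxo against daw 3' UTR, and DESeq2 gave 3 at 30 d, 3 at 45 d, 1 for miR-252 and 1 for the interaction. edgeR gave 1 for daw 3' UTR foxo against WT. With only the groups compared the counts were 0 at 45 d, 0 for daw 3' UTR, 0 for daw 3' UTR foxo against WT, 3 for miR-252 foxo and 1 for the interaction. Leaving out 1 library gave 0 to 4 at 15 d, 0 to 4 at 30 d, 0 to 5 at 45 d, 1 to 1 for Atg8a, 0 to 1 for daw 3' UTR, 0 to 3 and 1 to 2 for daw 3' UTR foxo against WT and against daw 3' UTR, 0 to 1 for miR-252, 0 to 2 for miR-252 foxo, 0 to 1 for the daw heterozygous flies against WT, 0 to 1 for the interaction and 1 to 3 for foxo averaged. It gave 0 to 0 for foxo alone, 45 d against 15 d, miR-252 averaged and the daw heterozygous flies against the double mutant. Over all genes, leaving out 3 d replicate 3 moved the calls at 15, 30 and 45 d from 669, 1132 and 1586 to 2584, 3526 and 4080, and keeping only the groups compared moved them to 163, 344 and 511. With only the groups compared, calls went from 818 to 535 for Atg8a, from 425 to 114 for the daw heterozygous flies against the double mutant and from 108 to 1402 for 45 d against 15 d (321 in DESeq2, 53 with a replicate block). The causes were not tested. A stricter deposited adjusted p of 0.01 left the counts at 0 (axenic foxo), 2 and 2 (Ago1).

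Replicate numbers were not taken as pairs in the main fits. Correlations of deviations between same-numbered libraries ran from -0.127 to 0.086 in males, -0.131 to 0.175 and -0.089 to 0.281 in the female sets. Between differently numbered libraries they ran from -0.103 to 0.126, -0.241 to 0.169 and -0.227 to 0.163. The highest value in the miR-252 and foxo set was thus a same-numbered pair, and low correlations cannot show that samples were unpaired. With the replicate block the counts were 0 at 15, 30 and 45 d, 1 for Atg8a, 1 for daw 3' UTR, 1 for daw 3' UTR foxo against WT, 2 against daw 3' UTR and 0 for the daw heterozygous flies against the double mutant. No paired analysis was possible for comparisons with WT in the miR-252 and foxo table because its WT columns carry no matching numbers. Depth limits Atg5 and Atg7 most, at 13 to 70 reads per library.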
